A study of Mus musculus with 6 samples.

Results

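The genes of the matrix metalloproteinases (Mmp), the ADAMTS proteases (Adamts) and the tissue inhibitors of metalloproteinases (Timp) were described in carotid arteries of mice after wire injury. The family was chosen by gene symbol: every probe set annotated with a single symbol made of Mmp, Timp or Adamts and a number was taken. This gave 70 of 34958 single-symbol probe sets and 37 of 18194 genes, namely 18 Mmp, 4 Timp and 15 Adamts genes. Of the family symbols in the RefSeq gene table, 9 were not analysed here: Mmp15, Mmp21, Mmp25, Mmp27, Mmp28, Adamts2, Adamts13, Adamts14 and Adamts17. Where a gene had several probe sets, as 19 of the 37 did, the one with the highest mean over the 6 arrays stood for it. Mmp2 was singled out with earlier results of these data known.

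The study compared wild-type mice (WT) with mice in which the transcription factor gene Irf4 was knocked out in all tissues (IRF4 KO). Mice of both genotypes had a wire passed through the carotid artery, and the vessels were taken 14 days later. Each Affymetrix array held RNA pooled from 3 to 5 vessels, with 3 arrays per genotype. The pooled vessels are one value per array, so spread between single mice was not measured, and no label gives the strain, sex or age of the mice. Values are log2 probe set intensities (log2 units), so a difference of 1 is a doubling, and they are given as mean ± SD.

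Matrix metalloproteinases are secreted or membrane-bound enzymes that use zinc to cut collagens, elastin, proteoglycans and other matrix proteins. They are made as inactive proenzymes, and the TIMPs block the active enzymes. ADAMTS enzymes are secreted relatives that cut proteoglycans such as aggrecan and versican, trim procollagens, or bind the fibrillin network. In an injured artery, gelatinases are known for opening the basement membrane around smooth muscle cells, which then migrate into the neointima.

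Most smooth muscle markers were high on every array: Acta2, the smooth muscle actin gene, read 12.62 to 13.92 and Myh11, the smooth muscle myosin gene, 11.44 to 12.30. The dimmest of the 8 listed, Des, read 5.14 to 6.50. Irf4 read between 3.27 and 3.90 on the brighter of its probe sets, under the median gene's 4.89 in WT and IRF4 KO alike, so it does not check the genotype labels. On 2 arrays, WT 3 and IRF4 KO 1, many genes ran apart from the rest. Their poly-A controls (transcripts of bacterial genes spiked into each sample) averaged 4.93 and 5.14, against 7.35 to 9.26 elsewhere. Relative to each gene's own mean, the 9 macrophage markers averaged 1.61 in WT 3 and 2.67 in IRF4 KO 1, against -1.33 to -0.67 on the others, and 8 of the 9 were highest on these 2 arrays. The 10 cartilage markers averaged 2.60 and 2.69 there, against -1.52 to -1.11, and 9 of the 10 were highest on them; 5 of 6 adventitial fibroblast markers were too (list levels of 1.02 and 1.44, against -0.70 to -0.47). Over all genes, 17.4% were highest on these 2 arrays. In whole-vessel RNA, fewer cells of a type and less RNA per cell cannot be told apart.

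A stretch of promoter that several family members share is shown first, because the Mmp genes next to each other on chromosome 9 of the assembly GRCm38.p6 did not move alike. The recognition sequence of AP-1, a factor long known to drive Mmp genes after cytokine and growth factor signals, was searched as TGANTCA, which reads the same on both strands. Of the family, 23 genes had a RefSeq promoter sequence; the other 14, Mmp2 among them, were not searched. In the 23, the 250 bases before the start of 8 of them held the motif. Some genes have more than 1 listed promoter. Counted by promoter, 8 of the family's 26 held the motif, against 6.75% of all promoters of that length. All 8 genes belong to the 9 family genes whose promoters lie between 7272264 and 7692340 on chromosome 9. Printed here are the last 120 bases before the start of 3 of them that were highest in WT 3 and IRF4 KO 1 (Mmp3, Mmp13, Mmp12) and of 1 that was not (Mmp10), 5′ to 3′ on the plus strand, with the motif in capitals:
Mmp3, chr9:7445702-7445821: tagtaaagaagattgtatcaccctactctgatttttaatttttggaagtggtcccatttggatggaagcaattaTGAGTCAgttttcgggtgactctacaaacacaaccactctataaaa
Mmp13, chr9:7272394-7272513: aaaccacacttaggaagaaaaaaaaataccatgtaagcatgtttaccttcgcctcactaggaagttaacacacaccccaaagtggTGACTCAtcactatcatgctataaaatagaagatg
Mmp12, chr9:7347254-7347373: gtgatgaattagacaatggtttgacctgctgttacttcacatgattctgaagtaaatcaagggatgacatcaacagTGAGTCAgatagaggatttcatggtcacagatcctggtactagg
Mmp10, chr9:7502222-7502341: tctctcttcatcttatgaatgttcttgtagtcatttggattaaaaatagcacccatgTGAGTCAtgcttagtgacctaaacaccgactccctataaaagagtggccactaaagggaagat

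The motif began 46 bases before the start in Mmp3, 35 in Mmp13, 44 in Mmp12 and 63 in Mmp10. Mmp12 and Mmp7 each have another listed start whose 250 bases held none. The motif is therefore present both in genes of this group that were highest in WT 3 and IRF4 KO 1 and in 5 genes that were not (Mmp10, Mmp1a, Mmp1b, Mmp7 and Mmp20). All genes with the motif had means below the median gene level of 4.89. Mmp1a, at 2.13, and Mmp1b, at 1.89, lay near the lowest values of the arrays, and whether they were detected was not tested. A match describes the letters and does not show that AP-1 was bound.

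The comparison of genotypes asks which of these proteases and inhibitors differ in the injured artery when IRF4 is missing. Mmp2, which encodes gelatinase A, a protease of basement membrane and denatured collagen, was the 1 gene of the 37 that stood well apart between genotypes. The WT arrays gave 8.01, 7.93 and 7.65, in order of replicate, and the IRF4 KO arrays 8.98, 9.04 and 9.32. All IRF4 KO arrays lay above all WT arrays, with no overlap. The means were 7.87 ± 0.19 and 9.11 ± 0.18 (n = 3 each), a log2 change of 1.25 (SE 0.20, 95% confidence interval 0.79 to 1.70) or 2.37-fold. Over all 18194 genes this did not pass: the limma adjusted p was 0.252 (unadjusted p = 2.01e-04, two-sided), and 10 genes had a smaller p.

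A second Mmp2 probe set, which was not used to represent the gene, gave the same picture. It read 6.97, 6.90 and 6.82 in WT and 8.11, 7.99 and 7.94 in IRF4 KO, again without overlap. The SDs were 0.078 and 0.089, and the log2 change was 1.12 (SE 0.16). With all single-symbol probe sets fitted as separate rows, the adjusted p was 0.294 for both (limma). The 2 probe sets read the same RNA and are no independent samples.

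Smooth muscle markers moved with Mmp2 in part. Of the 8 on the list, Acta2, Tagln and Smtn, which encode smooth muscle actin, SM22 and smoothelin, were higher in IRF4 KO by 1.14, 1.08 and 1.09, each with no overlap and, like Mmp2, a limma adjusted p of 0.252. The markers Myh11, Cnn1, Lmod1, Des and Synpo2 differed by -0.28 to 0.19 and overlapped. Averaged over the 8 and centred, the list lay at -0.33 to 0.033 in WT and -0.13 to 0.39 in IRF4 KO. Within a genotype the SDs of Acta2, Tagln and Smtn were 0.028 to 0.12, small like those of Mmp2, while the median within-genotype SD of all genes was 0.29. The scanner files behind these deposited values were not used here, so this tight spread was not checked against them. The part that the amount or state of smooth muscle plays in the Mmp2 difference was not tested.

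**Figure D1:**
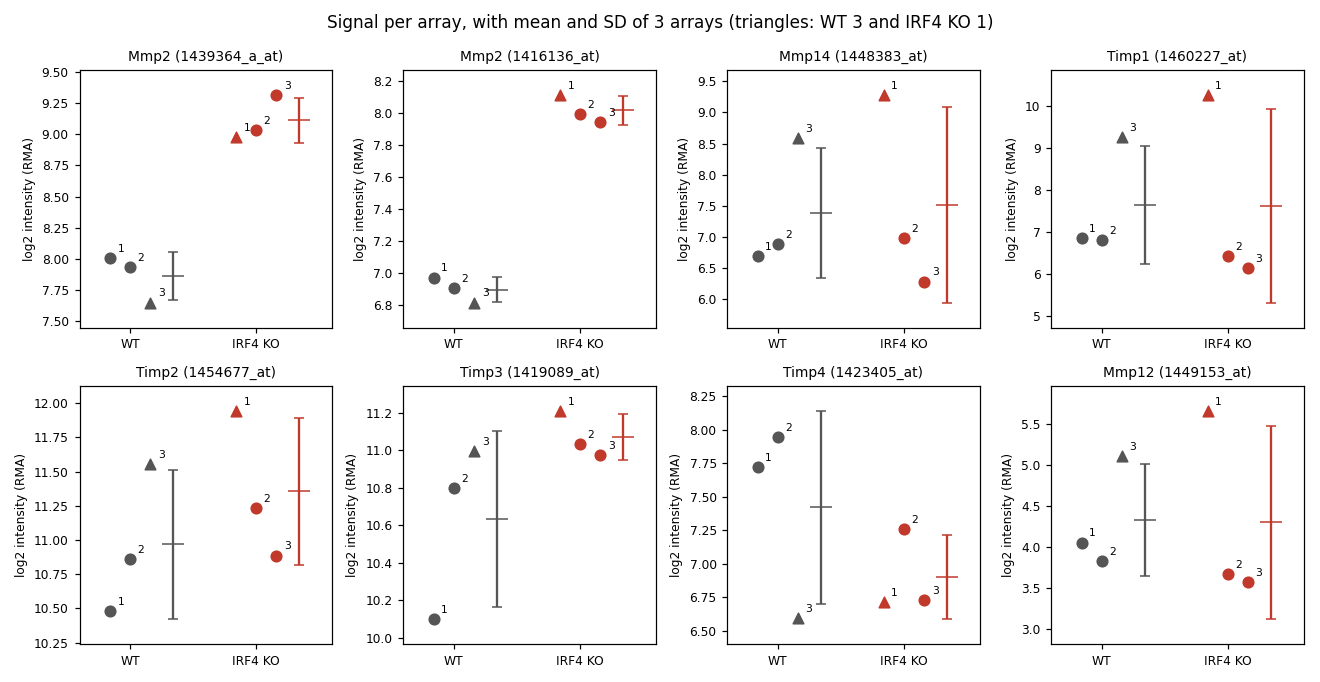
Log2 intensity on each array (points numbered by replicate) with the mean and SD of 3 arrays beside them, for both Mmp2 probe sets and 6 other family genes; triangles are WT 3 and IRF4 KO 1. Mmp2 separates by genotype on both probe sets, whereas Mmp14, Timp1, Timp2 and Mmp12 are highest in WT 3 and IRF4 KO 1.

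The rest of the family showed no call. Of the 37 genes, 0 passed limma's test at an adjusted p under 0.05 (0.0% of all genes did), and the 36 genes other than Mmp2 all had an adjusted p of 0.999. At an unadjusted p under 0.05 there was 1 gene, Mmp2, against 1.49% of all genes (0.407% higher and 1.08% lower in IRF4 KO). The genotypes did not overlap in 2 of 37 genes, Mmp2 and Adamts20, both higher, against 5.68% of all genes (2.37% higher and 3.31% lower). Adamts20, a versican-cleaving enzyme, read 1.79 to 1.84 in WT and 1.88 to 2.17 in IRF4 KO, near the lowest values of the arrays, a change of 0.16 (SE 0.18). By sign alone, 22 of the differences were positive and 15 negative, with a median of 0.099; over all genes 49.7% were positive and the median was -0.0015. Without WT 3 and IRF4 KO 1, 21 were positive and 16 negative, with a median of 0.043 (50.1% positive over all genes). Mmp2 was the only one of the 37 to differ by 1 log2 unit or more, a size reached by 0.324% of all genes. The next largest difference in size was that of Timp4, -0.52.

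These misses do not show that the other genes were alike in both genotypes. The 95% confidence interval lay wholly within 1 log2 unit of 0 in 22 of the 37 genes, so a doubling is outside it there. In the other 15, Mmp2 included, it reached beyond 1 log2 unit. It ran from -1.65 to 1.92 for Mmp14 and from -2.53 to 2.49 for Timp1. By mean level, 19 of the 37 lay above the median gene, as do 50.0% of all genes by construction, and 18 did not.

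**Figure D2:**
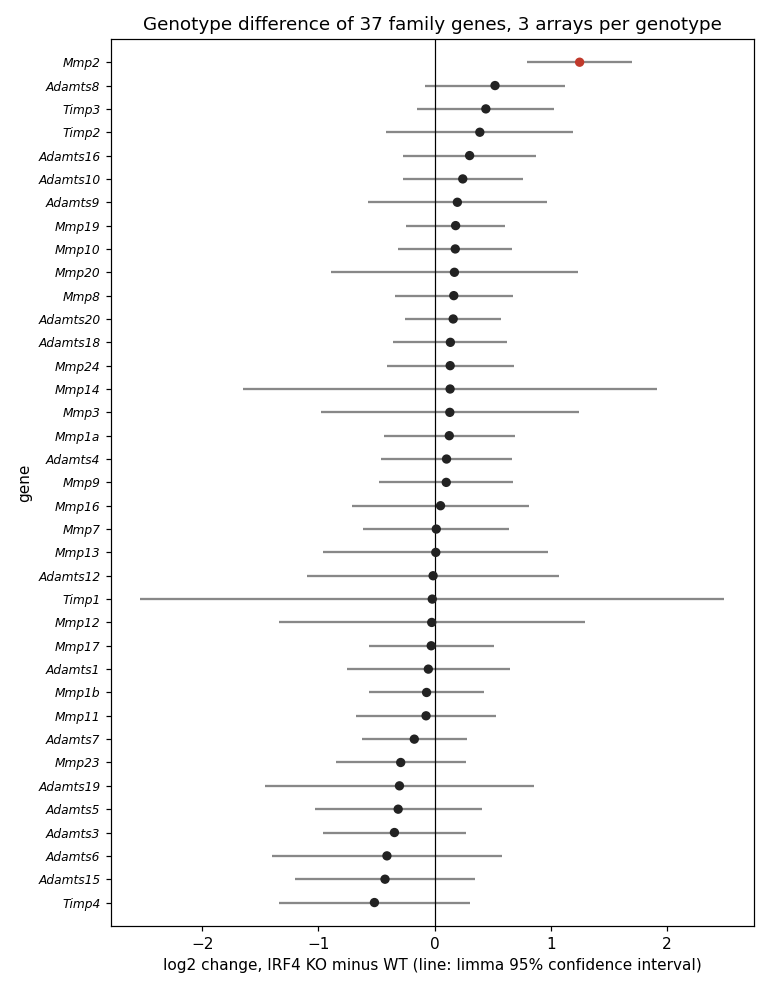
Log2 change (IRF4 KO minus WT, x axis) of each of the 37 genes, ordered by size, with the limma 95% confidence interval as a line; Mmp2 is in red. Only the interval of Mmp2, 0.79 to 1.70, lies clear of 0.

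To set Mmp2 against its relatives, each gene was centred on its own mean over the 6 arrays. Mmp2 then lay below the median of the other 36 genes by 0.38, 0.44 and 0.98 on WT 1, 2 and 3. It lay above that median by 0.33, 0.57 and 0.98 on IRF4 KO 1, 2 and 3. The median of the other 36 moved only between -0.15 and 0.16 over the arrays. These gaps therefore largely restate the genotype difference of Mmp2 and are no separate evidence for it. The spread of Mmp2 within a genotype, 0.19, was the third smallest in the family, where it ranged from 0.12 to 1.90 with a median of 0.36 (0.29 over all genes).

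Mmp14 and the TIMPs act on MMP-2 directly. Membrane-bound Mmp14 activates proMMP-2 at the cell surface in a complex with TIMP-2. Mmp14 read 6.69, 6.88 and 8.59 in WT and 9.29, 6.98 and 6.28 in IRF4 KO. WT 3 and IRF4 KO 1 were high and the genotypes overlapped fully (change 0.13, SE 0.78). Its 2 other probe sets differed by 0.26 and 0.59; on the dimmer of them only IRF4 KO 1 was high, at 5.70 against 3.28 to 4.24 on the other arrays. Mmp2 itself differed by -0.26 between those 2 arrays and the rest, where Mmp14 differed by 2.23.

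Timp2 read 10.48, 10.86 and 11.56 in WT and 11.94, 11.23 and 10.89 in IRF4 KO, a change of 0.39 (SE 0.35). WT 3 and IRF4 KO 1 were again the highest, and the genotypes overlapped. The change was 0.093 without IRF4 KO 1, 0.15 without WT 1, 0.68 without WT 3, 0.62 without IRF4 KO 3 and 0.39 without both WT 3 and IRF4 KO 1. All 6 probe sets of Timp2 had a positive difference, from 0.17 to 0.50, and none passed.

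Timp3 encodes the TIMP that binds to the matrix and also inhibits several ADAMTS enzymes. It read 10.10, 10.80 and 10.99 in WT and 11.21, 11.03 and 10.97 in IRF4 KO, a change of 0.44 (SE 0.26). The low WT value was that of WT 1, and without that array the change was 0.18. Of the 6 endothelial markers, 5 were lowest on WT 1 as well, where the list lay at -0.61 after centring against 0.017 to 0.35 on the other arrays, and their part in the Timp3 values was not tested. On its 4 probe sets Timp3 differed by 0.44 to 1.06, always upward, and on 2 of them the genotypes did not overlap. The largest of these differences came from a probe set that read 6.10 in WT 1 and 7.67 to 8.47 on the other arrays.

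Timp1, an inhibitor induced by cytokines and injury, had the widest range of the family, with WT values of 6.85, 6.81 and 9.25 and IRF4 KO values of 10.26, 6.43 and 6.15. WT 3 and IRF4 KO 1 were far above the other 4 arrays, while the genotype means, 7.64 ± 1.40 and 7.61 ± 2.30, differed by -0.021 (SE 1.10). Over the other 4 arrays the difference was -0.54, and from WT 3 to IRF4 KO 1 it was 1.02.

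Timp4, an inhibitor with a restricted tissue range that includes heart, went the other way. It read 7.72, 7.94 and 6.60 in WT and 6.71, 7.26 and 6.73 in IRF4 KO, a change of -0.52 (SE 0.36). WT 3 was the lowest array of all, below every IRF4 KO array. The second Timp4 probe set differed by 0.075, so the probe sets disagreed in sign.

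Mmp9, which encodes the other gelatinase and is known from neutrophils, macrophages and osteoclasts, gave no matching signal. It read 3.46, 2.92 and 2.96 in WT and 2.80, 3.38 and 3.45 in IRF4 KO, below the median gene level, with a change of 0.099 (SE 0.25, interval -0.48 to 0.68). The difference between Mmp2 and Mmp9 was not tested. The 7 neutrophil markers measured all had means below the median gene level. Of the 7, 2 were highest in WT 3 and IRF4 KO 1, S100a8 and S100a9, a pattern that 17.4% of all genes showed. S100a8 read 7.27 and 4.42 there and S100a9 6.13 and 3.97, against at most 3.36 and 3.41 on the other arrays. Camp, Ltf, Ngp, Mpo and Csf3r overlapped the other arrays, with differences of -0.41 to 0.48. Mmp9 read 2.96 on WT 3 and 2.80 on IRF4 KO 1, against 2.92 to 3.46 on the other arrays. The part that neutrophil RNA plays in the Mmp9 values was not tested.

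The 4 collagenase genes, Mmp1a, Mmp1b, Mmp8 and Mmp13, all had means below the median gene level and changes between -0.070 and 0.16. The stromelysins Mmp3, Mmp10 and Mmp11 and the matrilysin Mmp7 changed by -0.075 to 0.18. Among the remaining membrane-bound enzymes Mmp16 changed by 0.050, Mmp17 by -0.030 and Mmp24 by 0.13. None of these genes passed the test. Mmp23, an enzyme with a cysteine-rich tail unlike those of its relatives, read 8.80 to 9.38 in WT and 8.58 to 9.20 in IRF4 KO, a change of -0.29 (SE 0.24). Its second probe set differed by 0.24, in the opposite direction.

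Among the 15 ADAMTS genes, 7 differences were positive and 8 negative (49.7% positive over all genes), with a median of -0.014, and none passed. Without WT 3 and IRF4 KO 1, 9 were positive and 6 negative (50.1% positive over all genes). Adamts8, a proteoglycan-cleaving enzyme, had the second smallest p in the family (unadjusted p = 0.0840, limma). It read 4.59, 4.89 and 5.52 in WT and 5.71, 5.49 and 5.35 in IRF4 KO, a change of 0.52 (SE 0.26, interval -0.087 to 1.12). WT 3 lay within the IRF4 KO range and WT 1 and WT 2 below it. Adamts15, another enzyme of this group, read 6.43 to 6.52 in WT, and its change of -0.43 (SE 0.34) came from 1 array: IRF4 KO 3 read 5.21 and the other IRF4 KO arrays 6.57 and 6.36. Without IRF4 KO 3 the change was -0.0096.

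The aggrecan- and versican-cleaving enzymes Adamts1, Adamts4, Adamts5 and Adamts9 changed by -0.055, 0.10, -0.31 and 0.19. Adamts5, the main aggrecanase of mouse cartilage, was lower on all 4 of its probe sets, by 0.22 to 0.35, and the genotypes overlapped on each. Adamts3, which trims procollagens, changed by -0.35 (SE 0.27). Its highest value, 3.99, was that of WT 3, without which the change was -0.087, and without both WT 3 and IRF4 KO 1 it was -0.23. Adamts6, a member linked to microfibrils, changed by -0.41 (SE 0.43). It read 6.39 in WT 3 against 4.41 to 5.42 on the other 5 arrays. The change was 0.043 without WT 3, -0.080 without IRF4 KO 3 and -0.12 without both WT 3 and IRF4 KO 1.

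The split of WT 3 and IRF4 KO 1 from the rest was seen in this family and in the series at large. In 31 of the 37 genes the difference between these 2 arrays and the other 4 was larger in size than the genotype difference; over all genes this held for 71.3%. Both arrays lay above every other array in 15 of 37 genes, against 17.4% of all genes, and below every other array in 6, against 19.8%. The 2 arrays were singled out on spike-in levels and not on these genes, and no test was run on the split. The differences were 3.20 for Timp1, 2.23 for Mmp14, 1.61 for Mmp12, 1.33 for Adamts12, 1.31 for Mmp3 and 1.13 for Mmp13. Adamts19 differed most in the other direction, by -1.08.

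Mmp12 encodes the elastase of macrophages. It read 4.05, 3.82 and 5.10 in WT and 5.66, 3.67 and 3.57 in IRF4 KO. Its high arrays were those with high macrophage markers: Csf1r, the receptor gene of macrophage growth, stood at 9.72 on WT 3 and 10.30 on IRF4 KO 1, against 5.40 to 6.99 elsewhere. Mmp13 and Mmp3 followed the same arrays, at 3.01 and 3.33 against 1.78 to 2.18 for Mmp13, and at 5.38 and 5.92 against 4.09 to 4.54 for Mmp3. Col2a1, the collagen gene of cartilage, where Mmp13 is known to act, read 12.07 and 12.16 on these arrays and 3.75 to 5.15 on the others. Of the 6 osteoclast and bone markers measured, 3 were highest on these arrays too (Acp5, Ctsk and Ibsp), against 17.4% of all genes. Ocstamp, Dcstamp and Calcr overlapped the other arrays. The part that macrophage, cartilage or bone RNA plays in these protease values was not tested.

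**Figure D3:**
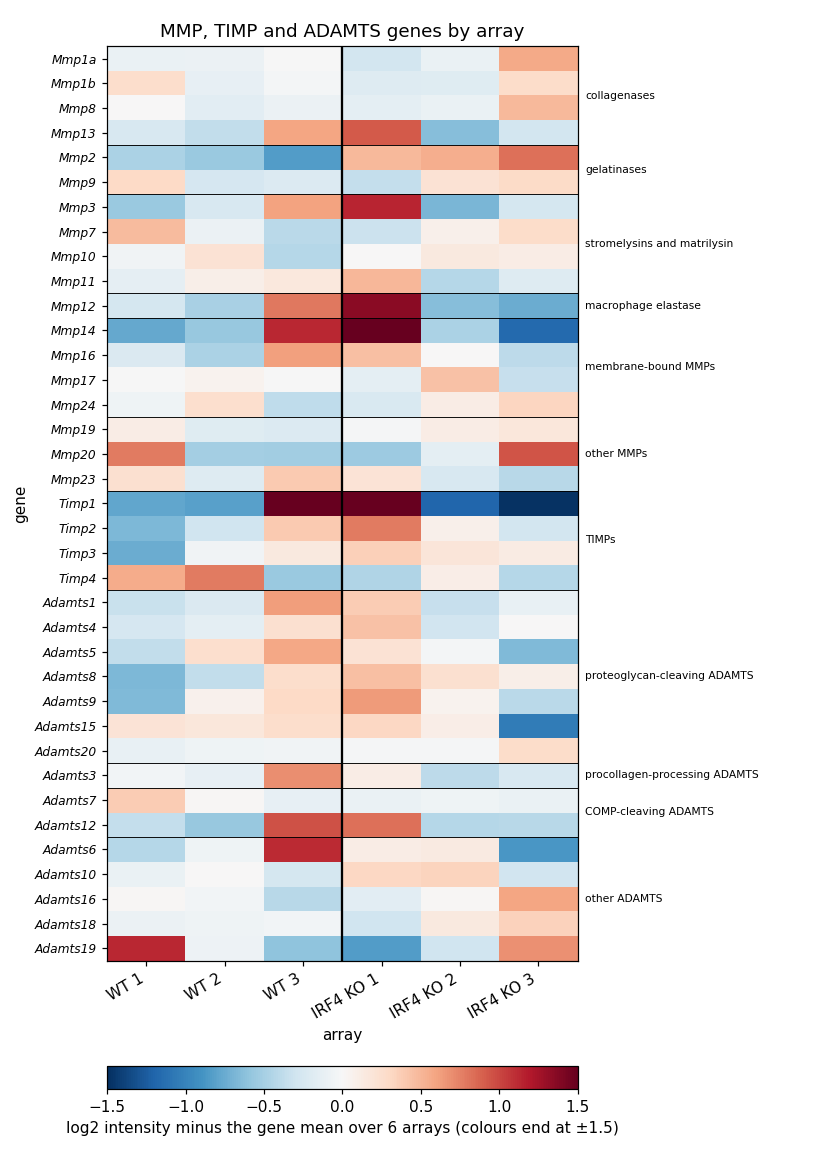
Each row is 1 of the 37 genes and each column 1 array; the colour gives the log2 intensity minus that gene's mean over the 6 arrays, and rows are grouped by role. Timp1, Mmp14, Mmp12, Mmp3 and Mmp13 are high in WT 3 and IRF4 KO 1, while Mmp2 is low in all 3 WT arrays and high in all 3 IRF4 KO arrays.

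Since the set of 2 arrays and the set of 4 each held both genotypes, the genotype difference was taken within each. Mmp2 was 1.33 higher in IRF4 KO 1 than in WT 3 and 1.21 higher in IRF4 KO over the other 4 arrays, so it was as large within either set as over all arrays. Blocking on the spike-in set, its limma adjusted p was 0.0904 (SE 0.19), and over the 4 arrays alone it was 0.308. In the family as a whole, 18 of 37 genes had the same sign in both sets, against 52.1% of all genes. Mmp14 went from 0.70 in the pair to -0.15 over the 4 arrays, and Mmp12 from 0.56 to -0.32.

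With the block, 0 genes of the family passed after adjustment (0.0% of all genes) and 2 had an unadjusted p under 0.05, Mmp2 and Adamts8 (0.0251), against 3.68% of all genes (1.29% higher and 2.4% lower). Over the 4 arrays there were 3, Mmp2, Adamts8 (0.0221) and Timp4 (0.0100), against 3.87% of all genes (1.03% higher and 2.84% lower). The genotypes did not overlap in 15 of 37 genes over these 4 arrays, against 29.9% of all genes. None of the 3 with a small p passed after adjustment (0.0275% of all genes did). Adamts8 differed by 0.68 over the 4 arrays and by 0.19 in the pair. Timp4 differed by -0.84 over the 4 arrays and by 0.12 in the pair, which holds 1 array of each genotype. Leaving out 1 array at a time it stayed negative, from -0.93 to -0.26.

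**Figure D4:**
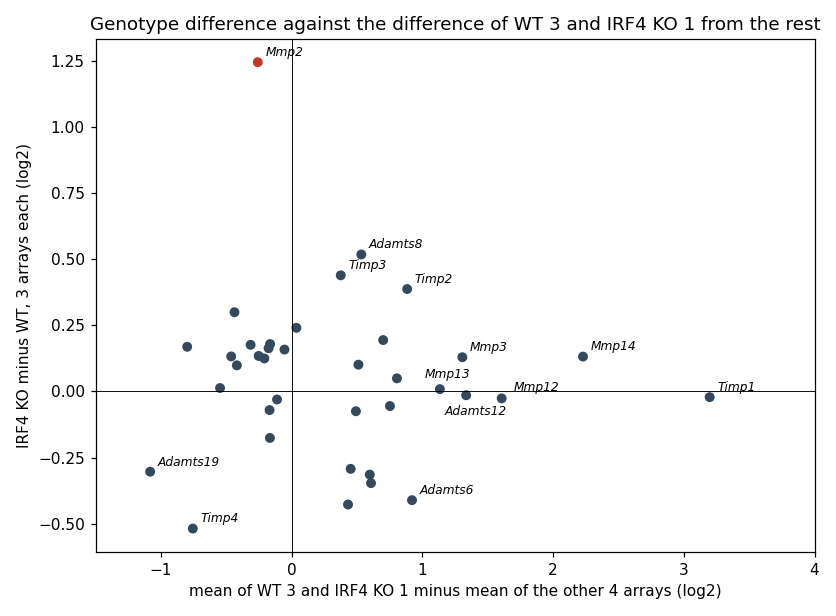
For each of the 37 genes, the genotype difference (IRF4 KO minus WT, log2, y axis) against the mean of WT 3 and IRF4 KO 1 minus the mean of the other 4 arrays (log2, x axis). Mmp2 lies alone at 1.25 on the y axis and -0.26 on the x axis; Timp1 (3.20), Mmp14 (2.23) and Mmp12 (1.61) lie far out on the x axis with genotype differences between -0.026 and 0.13.

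Genes whose products switch on, bind or inhibit these proteases were read from a list of 24 genes, of which 22 were measured. None passed (limma, adjusted), and 0 had an unadjusted p under 0.05 (1.49% of all genes did). Of the differences, 12 were positive and 10 negative, with a median of 0.043 (49.7% positive over all genes). Over the 4 arrays 13 were positive and 9 negative, with a median of 0.042 (50.1% positive over all genes). Bsg, which encodes the inducer of metalloproteinases also called EMMPRIN, read 8.31 ± 0.37 in WT and 8.79 ± 0.63 in IRF4 KO. Its difference of 0.48 was 1.05 from WT 3 to IRF4 KO 1 and 0.20 over the other 4 arrays. Furin, the protease that activates MMP-14, read 6.18 ± 0.70 and 5.77 ± 0.46, and the integrin gene Itgav 10.44 ± 0.15 and 10.20 ± 0.22. On the split of arrays, 9 of the 22 were highest in WT 3 and IRF4 KO 1 and 6 lowest, against 17.4% and 19.8% of all genes.

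Matrix proteins known as substrates were read from a list of 20 genes, of which 19 were measured. Here 17 differences between IRF4 KO and WT were positive and 2 negative, with a median of 0.28, where 49.7% of all genes were positive. Without WT 3 and IRF4 KO 1, 15 were positive and 4 negative, with a median of 0.26, where 50.1% of all genes were positive. Many genes of the list moved together over the arrays, so these signs are not independent counts. WT 1, which stays in the set of 4, was the lowest array for 8 of the 19. After centring, the list lay at -0.72 on WT 1 and -0.79 on WT 2. None passed, and 0 had an unadjusted p under 0.05 (limma), against 1.49% of all genes. The basement membrane collagen gene Col4a1 read 10.69 ± 0.45 in WT and 11.01 ± 0.17 in IRF4 KO, the platelet-binding Vwf 8.81 ± 0.22 and 9.14 ± 0.27, and the proteoglycan Bgn 12.98 ± 0.29 and 13.25 ± 0.03. The list followed the same 2 arrays: 14 of the 19 genes were highest in WT 3 and IRF4 KO 1, against 17.4% of all genes. The list lay at 1.17 and 1.45 there, against -0.79 to -0.51 elsewhere. These 2 arrays are 1 of each genotype, and the part of the split in the substrate values was not tested beyond these counts.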

How the data were processed

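The authors deposited log2 intensity values for each probe set. The submitters' processing notes name Affymetrix Expression Console and RMA, which corrects background, normalizes between arrays and sums up the probes, with no version or settings. Array medians lay between 3.94 and 4.12 over 45101 probe sets. Gene symbols came from the platform's annotation, and 932 probe sets with several symbols and 9211 with none were left out. Promoter sequences are RefSeq's (GRCm38.p6).

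The fit covered all 18194 genes and used limma 3.58.1 under R 4.3.3, with lmFit and eBayes, two-sided, on genotype only, with Benjamini-Hochberg adjustment over all genes and a threshold of 0.05. No dim gene was removed. Replicates are biological per the labels, and the number of arrays limits the precision. The arrays with poly-A controls (24 probe sets) averaging below 6 log2 units formed the low spike-in set.

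The members, lists and alternatives were chosen with earlier results of these data known. Named were Mmp2, Mmp14, Mmp9 and the Timp genes, the 6 smallest p, the 5 highest means, the 4 widest ranges and every gene without overlap, plus up to 3 genes per list by p. Other genes were named after their values were seen. Alternatives were a replicate block, other probe set choices, a filter on dim genes, other normalizations, an intensity trend, array weights, leaving out arrays and a spike-in block. The fits on the dimmest probe set of each gene and on all probe sets were added after seeing the data.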

Additional observations from a re-analysis of the deposited data

How the results depend on the processing

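Mmp2 stayed higher in IRF4 KO in all 18 alternatives, with changes from 1.12 to 1.32 (1.14 to 1.32 leaving out 1 array) and adjusted p from 0.00178 to 0.999995. It passed only with array weights (1.13), where it was the 1 family gene called (0.374% of all genes). That fit weighted IRF4 KO 2 at 26.7 and the other arrays at 0.28 to 2.57, so it rests largely on 1 array, and the weights had not converged. Family genes with an unadjusted p under 0.05 (limma) rose from 1 to 2 with the mean of all probe sets, quantile normalization or the spike-in block. Under the block 3.68% of all genes had such a p. The count was 3 without both low spike-in arrays (3.87% of all genes) and 10 with array weights (23.4% of all genes). Leaving out 1 array gave 1 to 3 (3 without WT 3, with Adamts8 and Timp4). Genes without overlap numbered 4 with the mean of all probe sets, 1 without dim genes and 15 over the 4 arrays (29.9% of all genes). Leaving out 1 array gave 3 to 10 (7 without WT 3, 10 without IRF4 KO 1). Fewer arrays overlap less often by construction. For the settings given here with no share, the share over all genes was not taken, so those counts cannot be read as a result about the family.

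Of 206 refits of the other 14 named genes, 18 turned sign and none passed. Timp1 was 0.078 with quantile normalization, Adamts6 0.079 and Mmp14 -0.079 with array weights, and over the 4 arrays Adamts1 was 0.043 and Mmp14 -0.15. Leaving out 1 array moved Mmp14 between -0.75 and 0.75, Timp1 between -1.35 and 0.79, Mmp12 between -0.71 and 0.36, Adamts1 between -0.26 and 0.24, Adamts6 between -0.73 and 0.043 and Mmp9 between -0.022 and 0.30. The cause was not tested.

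The replicate block left Mmp2 at 1.25 (SE 0.27) and the family count at an unadjusted p under 0.05 at 1. Deviations of same-numbered arrays correlated at -0.52, 0.37 and -0.62. The largest correlation between the genotypes, 0.68, was that of WT 3 with IRF4 KO 1, the low spike-in arrays. Deviations within a genotype are tied to one another, so this split bears on the other correlations too. The check therefore cannot decide whether same-numbered arrays were handled together.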

Other observations

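The metalloproteinases of the ADAM group and the ADAMTS-like proteins, which lie outside the family as defined, were read from a list of 18 genes, all measured. None passed with limma after adjustment, and 0 had an unadjusted p under 0.05 (1.49% of all genes did). Of the differences, 12 were positive and 6 negative, with a median of 0.085 (49.7% positive over all genes). Without WT 3 and IRF4 KO 1, 14 were positive and 4 negative, with a median of 0.17 (50.1% positive over all genes). Adam22, which lacks protease activity, read 3.81 ± 0.15 in WT and 4.15 ± 0.22 in IRF4 KO, Adam12 3.80 ± 0.16 and 4.14 ± 0.47, and Adam28 3.42 ± 0.18 and 3.66 ± 0.19 (n = 3 each). The Adam12 difference of 0.34 was 0.16 without those 2 arrays. On the split of arrays, 7 of the 18 were highest in WT 3 and IRF4 KO 1 and 1 lowest, against 17.4% and 19.8% of all genes. Among the 7 were Adam8, Adam17 and Adamtsl3, with differences of 1.04, 1.17 and 1.20 from the other 4 arrays.

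All probe sets of a gene gave the same sign of the genotype difference in 12 of the 19 family genes with several probe sets, against 40.1% of the 9012 such genes overall. The genes whose probe sets agreed include Mmp2, Timp2, Timp3 and Adamts5. Those that disagreed include Timp4, Mmp23 and Adamts6.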
